A study of Mus musculus with 3 samples.

Results

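The 9 genes described here act in the fusion of myoblasts into muscle fibres and in the shaping and repair of the muscle cell membrane. They were chosen by symbol in the gene column of the authors' table, which holds 24401 loci. They are the fusogens myomaker (Mymk, listed under the older symbol Tmem8c) and myomixer (Mymx, listed as Gm7325), the cadherins Cdh15 and Cdh2, the ferlins Dysf and Myof, the caveola genes Cav3 and Ehd2, and the membrane-curving gene Bin1. Each had 1 locus in the table. RNA came from the mouse myoblast line C2C12. The cells, grown beforehand in medium with fetal bovine serum at 10%, had been turned into myotubes over 72 hours (DMEM, horse serum at 2%, insulin at 1 µg/ml), and each of 3 cultures then spent 24 hours in its own medium. In the conditioned media + resveratrol group this was medium taken from S2-013 cells, a line of human pancreatic cancer, after 24 hours on them, supplemented with 50 µM of the plant polyphenol resveratrol. The conditioned media group had such medium without resveratrol, and the control group had DMEM. Each group held 1 library, so no difference below has a replicate check, an SD or a p-value of its own. None of the 3 libraries came from myotubes given resveratrol in DMEM, so resveratrol without conditioned medium was not tested. The labels do not state whether the DMEM given as control medium held serum, or the solvent of resveratrol.

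A muscle fibre forms when aligned myoblasts merge their membranes. Cell contact comes first, through cadherins such as M-cadherin (Cdh15) and N-cadherin (Cdh2). Myomaker, a membrane protein with several membrane-spanning segments, and myomixer, a micropeptide, then drive the merging of the lipid bilayers. Ferlins bind calcium and phospholipids through C2 domains: dysferlin (Dysf) brings vesicles to tears in the fibre membrane, and myoferlin (Myof) takes part in fusion. Caveolae are small membrane pits that buffer stretch. Their coat in muscle uses caveolin-3 (Cav3), other cells use caveolin-1 (Cav1), and the ATPase EHD2 sits at the caveolar neck. Amphiphysin-2, the product of Bin1, bends membrane into the T-tubules that carry the action potential into the fibre.

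The values are the authors' FPKM, fragments counted per length of transcript and per mapped fragments of the library, so levels can be compared between genes. Differences are log2((FPKM + 1)/(FPKM + 1)), which understates the change of low genes. A gene is called higher or lower by size when this log2 ratio reached 1 in absolute value and its mean FPKM reached 1, which 11858 loci did. Read totals are unknown, since these FPKM carry no counts. The labels call the cells myoblasts and the treatment text calls them differentiated. All 12 myotube markers on the list were measured, with a summed level of 8028 FPKM with resveratrol, 5606 FPKM in conditioned media and 6527 FPKM in control. The 4 macrophage markers summed to 1.86 FPKM with resveratrol, 1.90 FPKM in conditioned media and 1.20 FPKM in control. Most of this was Cd68, at 1.82 FPKM with resveratrol, 1.49 FPKM in conditioned media and 1.02 FPKM in control, while Ptprc and Adgre1 were listed at 0 in every library. The 4 endothelial markers summed to 0.0789 FPKM with resveratrol, 0.387 FPKM in conditioned media and 0.0966 FPKM in control, with Tie1 at 0 throughout, and all 4 adipocyte markers were below 1 FPKM.

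Promoter sequence from RefSeq (GRCm38.p6, the same assembly as mm10) was matched to 5 of the 9 genes. It runs from 250 bases before to 50 after a start site. Cav3 and Ehd2 are shown because both are caveola genes and stood on opposite sides in the resveratrol comparison, and Cdh15 because it was lower in both conditioned media libraries than in control. Capitals mark E-boxes, CANNTG, the motif that basic helix-loop-helix factors such as MyoD and myogenin bind, which reads the same on both strands as a pattern.
Cav3 (chr6:112459255-112459554, plus strand): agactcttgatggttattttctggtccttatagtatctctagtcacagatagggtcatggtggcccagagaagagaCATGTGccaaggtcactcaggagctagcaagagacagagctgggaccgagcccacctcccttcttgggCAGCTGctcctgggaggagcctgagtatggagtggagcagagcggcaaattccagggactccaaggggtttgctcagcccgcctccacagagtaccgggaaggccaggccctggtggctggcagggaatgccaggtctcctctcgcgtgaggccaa
Ehd2 (chr7:15967486-15967785, minus strand): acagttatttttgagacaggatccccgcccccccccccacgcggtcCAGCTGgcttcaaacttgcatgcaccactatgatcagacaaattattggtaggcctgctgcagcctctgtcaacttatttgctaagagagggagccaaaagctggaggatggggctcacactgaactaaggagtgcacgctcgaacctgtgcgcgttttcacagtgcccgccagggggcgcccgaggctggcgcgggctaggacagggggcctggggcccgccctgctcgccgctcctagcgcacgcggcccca
Cdh15 (chr8:122848124-122848423, plus strand): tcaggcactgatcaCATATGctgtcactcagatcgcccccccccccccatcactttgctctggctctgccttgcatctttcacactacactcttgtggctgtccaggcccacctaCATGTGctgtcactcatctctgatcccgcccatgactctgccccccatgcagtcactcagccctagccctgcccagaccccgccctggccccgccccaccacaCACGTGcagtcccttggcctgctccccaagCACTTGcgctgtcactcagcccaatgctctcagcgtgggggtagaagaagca
The Cav3 window holds 2 E-boxes, CATGTG starting 174 bases and CAGCTG starting 106 bases before the start site. The Ehd2 window holds 1, a CAGCTG at 204 bases before it, and the Cdh15 window holds 4, none of them CAGCTG. Among 32851 mouse promoters of that length, 72.3% hold at least 1 E-box, 39.6% at least 2 and 6.49% at least 4, and 16.3% hold CAGCTG. The Myof window and the first of 2 Dysf windows hold 0, and the second Dysf window holds 1. These matches describe letters in a window and say nothing of binding.

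The 9 genes followed 3 courses over the 3 libraries. Mymk, Mymx, Cdh2, Cav3 and Bin1 were lowest in conditioned media. Cdh15, Dysf and Myof were lowest with resveratrol, with conditioned media between that and control. Ehd2 was alike in conditioned media and control and was low with resveratrol. In control the order of levels ran from Mymk and Bin1 through Mymx, Ehd2, Myof, Cdh15, Cdh2 and Cav3 to Dysf. Without replicates it cannot be said which neighbours in that order differ beyond their spread. With resveratrol Bin1 passed Mymk, and Cdh15 stood below both Cdh2 and Cav3.

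**Figure D1:**
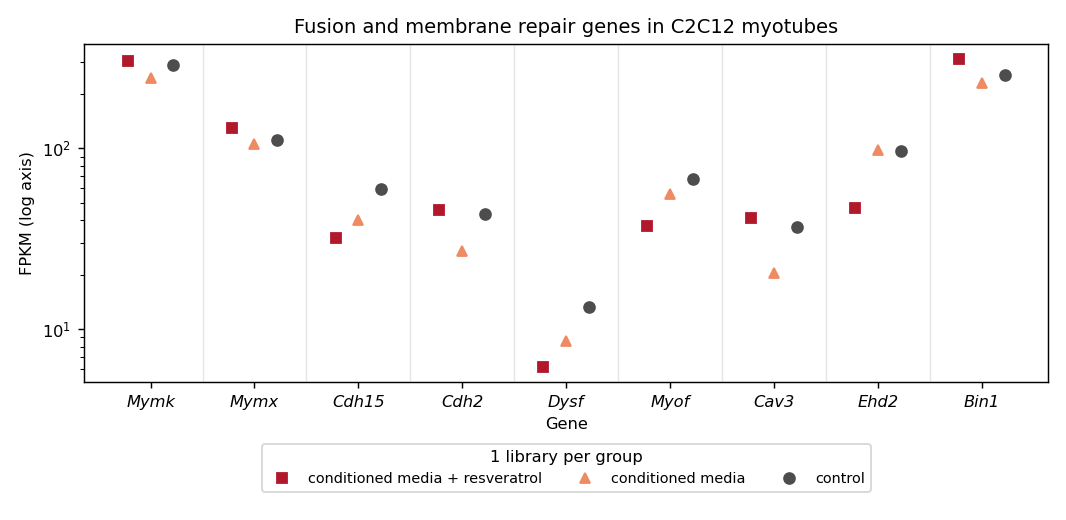
FPKM on a log axis for the 9 genes, with 1 point for each library: conditioned media + resveratrol (square), conditioned media (triangle) and control (circle), and no error bars because each group is 1 library. Mymk, Mymx, Cdh2, Cav3 and Bin1 are lowest in conditioned media, whereas Cdh15, Dysf, Myof and Ehd2 are lowest with resveratrol.

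The fusogens were among the highest of the 9 and differed little. Mymk, at chromosome 2, 27061636 to 27072161 of mm10, stood at 304.8 FPKM with resveratrol, 244 FPKM in conditioned media and 289 FPKM in control. Mymx, at chromosome 17, 45600965 to 45602102, stood at 129.9 FPKM with resveratrol, 105 FPKM in conditioned media and 111 FPKM in control. Both were lowest in conditioned media, with Mymk 1.25-fold and Mymx 1.24-fold higher with resveratrol than there. The Mymk level per Mymx level was 2.35 with resveratrol, 2.33 in conditioned media and 2.60 in control. Set against Myog, the myogenin gene, whose level was 596 FPKM with resveratrol, 313 FPKM in conditioned media and 384 FPKM in control, the Mymk level was 0.512 of Myog with resveratrol, 0.779 in conditioned media and 0.753 in control. This last ratio was chosen after the values were seen.

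The cadherins parted with resveratrol. Cdh15, at chromosome 8, 122848374 to 122867397, stood at 31.8 FPKM with resveratrol, 40.1 FPKM in conditioned media and 59.3 FPKM in control. Cdh2, at chromosome 18, 16567924 to 16809091, stood at 45.6 FPKM with resveratrol, 26.9 FPKM in conditioned media and 43.1 FPKM in control. M-cadherin was therefore low in both conditioned media libraries, while N-cadherin was low in conditioned media only. The Cdh15 level per Cdh2 level was 0.697 with resveratrol, 1.49 in conditioned media and 1.38 in control, so the more abundant of these cadherin messages was Cdh2 with resveratrol and Cdh15 in the other libraries. A GENCODE M21 gene on the same strand, Gm20388, spans the Cdh15 locus, and antisense Gm15485 lies within Cdh2. Reads of overlapping genes may be shared, since the strand setting of the counting is unknown.

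Both ferlins were lowest with resveratrol. Dysf, at chromosome 6, 84008303 to 84211059, had the lowest level of the 9 genes, at 6.16 FPKM with resveratrol, 8.61 FPKM in conditioned media and 13.3 FPKM in control. Myof, at chromosome 19, 37899036 to 38043577, stood at 37.1 FPKM with resveratrol, 56.1 FPKM in conditioned media and 67.4 FPKM in control. Myoferlin was the more abundant ferlin message throughout. Its level was 6.02 times that of Dysf with resveratrol, 6.52 times in conditioned media and 5.07 times in control. GENCODE M21 places the pseudogene Gm7498 on the same strand within Dysf, and antisense genes Gm33024 and Gm15475 over it. Of other ferlin genes, Fer1l5 stood at 0.347 FPKM with resveratrol, 0.432 FPKM in conditioned media and 0.621 FPKM in control, and Otof was listed at 0 in all libraries.

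The caveola genes Cav3 and Ehd2 went opposite ways with resveratrol. Cav3, at chromosome 6, 112459505 to 112472872, stood at 41.0 FPKM with resveratrol, 20.4 FPKM in conditioned media and 36.9 FPKM in control. Ehd2, at chromosome 7, 15946962 to 15967552, stood at 46.5 FPKM with resveratrol, 98.3 FPKM in conditioned media and 96.3 FPKM in control. Cav3 was thus the low one in conditioned media, and Ehd2 the low one with resveratrol. Cav1, the caveolin of most other cells, stood at 108 FPKM with resveratrol, 265 FPKM in conditioned media and 225 FPKM in control. The Cav1 level was 2.64 times that of Cav3 with resveratrol, 13.0 times in conditioned media and 6.11 times in control. Ehd2 per Cav1, a ratio chosen after the values were seen, was 0.431 with resveratrol, 0.371 in conditioned media and 0.427 in control. The related gene Ehd1, which acts in endocytic recycling, stood at 38.2 FPKM with resveratrol, 34.1 FPKM in conditioned media and 38.1 FPKM in control.

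Bin1, at chromosome 18, 32359057 to 32435740, stood at 310 FPKM with resveratrol, 230 FPKM in conditioned media and 253 FPKM in control. It was the highest of the 9 genes with resveratrol and came after Mymk in the other libraries. Its span overlaps the locus of A830052D11Rik, a noncoding gene on the other strand, and no other member's span overlaps a further locus of the table. Bin1 has muscle and other splice forms, which a gene-level value does not separate.

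**Figure D2:**
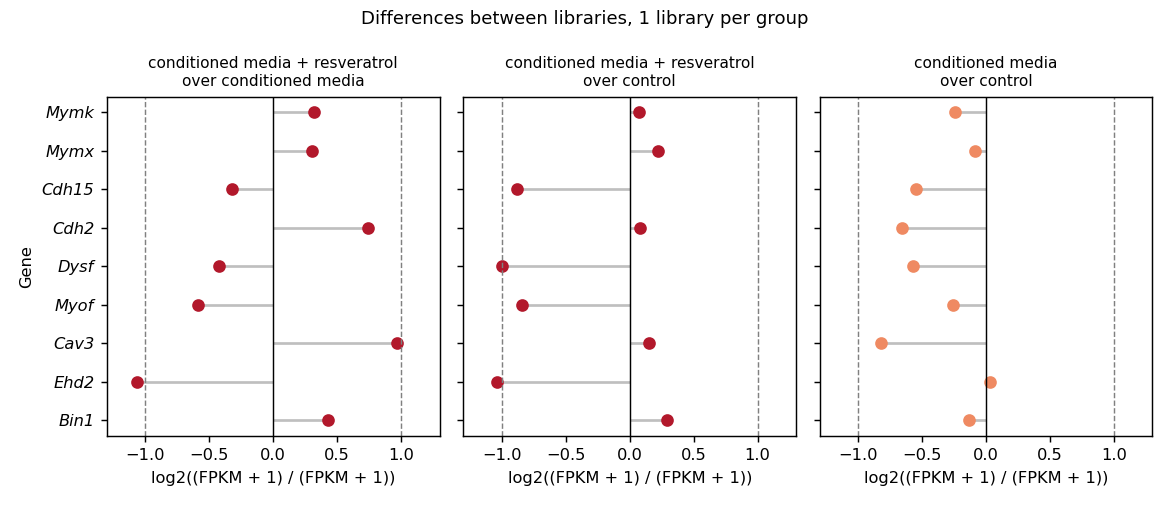
log2((FPKM + 1)/(FPKM + 1)) of each gene in the 3 comparisons, with dashed lines at -1 and 1, the size at which a gene is called. Ehd2 lies past -1 in both resveratrol panels, Cav3 just short of 1 over conditioned media and Dysf just short of -1 over control.

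The first comparison asks what pancreatic cancer cell conditioned medium altered in these genes relative to DMEM. By size, 0 of the 9 genes were higher (1.98% of 11858 loci were) and 0 were lower (0.751% of loci were). Log2 ratios lay between -0.82 for Cav3 and 0.03 for Ehd2, with 8 of 9 below 0. Their median was -0.26, beside -0.01 over all 11858 loci, of which 51.3% were below 0. Cav3 was 1.81-fold lower, and 1.61% of loci had a lower ratio than it. Cdh2 followed at -0.66, Dysf at -0.57 and Cdh15 at -0.55, with 3.42%, 5.19% and 5.66% of loci below them. Mymk (-0.24), Myof (-0.26), Bin1 (-0.13) and Mymx (-0.09) stood nearer to 0, and after rescaling FPKM to TPM over all loci Mymx and Bin1 were above 0, at 0.11 and 0.06. With TPM over loci longer than 200 bases Ehd2 was at -0.06, so that all 9 were below 0. The authors' deposited table calls 7 of the 9 lower, all but Mymx and Ehd2, and it calls 29.9% of its 10982 tested loci lower and 25.8% higher.

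The second comparison asks what resveratrol altered in conditioned medium. Ehd2 was 2.11-fold lower (log2 ratio -1.06) and was the 1 member of 9 called lower by size, against 4.97% of loci, while 0 were called higher, against 1.53%. Cav3 had the highest ratio, 0.97, a 2.01-fold difference in FPKM that fell short of the threshold on the log2(FPKM + 1) scale, and 1.73% of loci stood above it. Cdh2 came next at 0.74, with 4.17% of loci above it. Bin1 (0.43), Mymk (0.32) and Mymx (0.30) were also above 0. Myof (-0.59), Dysf (-0.43) and Cdh15 (-0.33) were below 0, with 12.6%, 18.3% and 23.0% of loci lower still. The median was 0.30, beside 0.03 over all loci, of which 52.5% were above 0. The authors' deposited table calls 5 members higher and 4 lower, and 34.1% of its 11033 tested loci higher and 29.5% lower.

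Both comparisons use the same conditioned media library, so a gene that is low in it stands low in the first and high in the second. The third comparison sets resveratrol in conditioned medium against control and leaves that library out. Here too Ehd2 was the 1 member called lower by size, at -1.03 (5.25% of loci were lower), and 0 were called higher (3.6% of loci were). The Ehd2 call is lost at a pseudocount of 5 (-0.98) and with FPKM rescaled to TPM over all loci (-0.82). Dysf, 2.16-fold lower in FPKM, lay just inside the threshold on the log2(FPKM + 1) scale. Cdh15, at -0.88, and Myof, at -0.84, came next, and 6.94% and 7.48% of loci had lower ratios than these. The other 5 genes lay between 0.07 and 0.30: Bin1 at 0.30, Mymx at 0.22, Cav3 at 0.15, Cdh2 at 0.08 and Mymk at 0.07, of which Cdh2 and Mymk were below 0 after rescaling to TPM over loci longer than 200 bases. The median of the 9 was 0.07, beside 0.00 over all loci. The authors' deposited table calls Cdh15, Dysf, Myof and Ehd2 lower and Mymk, Mymx and Bin1 higher, and does not call Cav3 and Cdh2. It calls 34.1% of its 10939 tested loci in each direction.

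Genes that work with the members were taken from 5 lists. Of 10 caveola genes measured besides Cav3 and Ehd2, 4 were lower with resveratrol than in conditioned media by size and 0 were higher. Over all loci 4.97% were lower and 1.53% higher. The median log2 ratio of the 10 was -0.52. Cav2, which pairs with caveolin-1, had the lowest ratio, -2.10, at 9.06 FPKM with resveratrol, 42.1 FPKM in conditioned media and 28.7 FPKM in control. Sdpr, also named Cavin2, a coat protein gene that shapes caveolae, stood at 9.45 FPKM with resveratrol, 30.3 FPKM in conditioned media and 36.9 FPKM in control. Cav1 (-1.29) and Prkcdbp (-1.01), the gene of cavin-3, completed these 4. The same 4 were lower than in control by size, where 5.25% of all loci were lower. Of the 4, 2 stayed past the threshold against control after rescaling to TPM over all loci. Ptrf, which encodes the main coat protein cavin-1, was less different, at 115 FPKM with resveratrol, 150 FPKM in conditioned media and 148 FPKM in control. Ehd4 took a course like that of Cav3, at 60.3 FPKM with resveratrol, 36.6 FPKM in conditioned media and 61.3 FPKM in control. In conditioned media against control 0 of the 10 passed by size, with a median of -0.00.

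**Figure D3:**
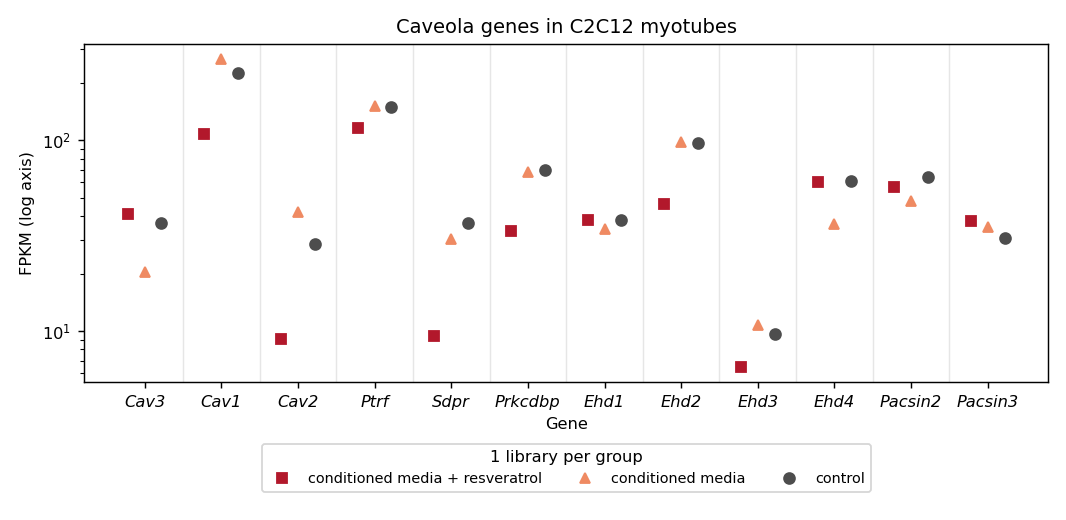
FPKM on a log axis of Cav3 and Ehd2 with the 10 listed caveola genes, 1 point for each library: conditioned media + resveratrol (square), conditioned media (triangle) and control (circle). Cav1, Cav2, Sdpr, Prkcdbp and Ehd2 are lowest with resveratrol, while Cav3 and Ehd4 are lowest in conditioned media.

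The T-tubule list stood on the other side with resveratrol. Its 12 measured genes had a median log2 ratio of 0.37 over conditioned media. By size 2 were higher (1.53% of all loci were) and 0 lower (4.97% were). After rescaling to TPM, 1 was higher and 0 lower when summed over all loci, and 1 higher and 1 lower over loci longer than 200 bases. Jph2, junctophilin-2, which ties the T-tubule to the sarcoplasmic reticulum, stood at 65.7 FPKM with resveratrol, 31.5 FPKM in conditioned media and 53.9 FPKM in control. Its course over the libraries was like that of Cav3. Tcap, telethonin, a Z-disc protein gene, stood at 27.8 FPKM with resveratrol, 11.1 FPKM in conditioned media and 7.53 FPKM in control. Mtm1, myotubularin, a phosphoinositide phosphatase, stood at 6.63 FPKM with resveratrol, 4.65 FPKM in conditioned media and 3.35 FPKM in control. Dnm2, the membrane-cutting dynamin that Bin1 binds, was at 28.3 FPKM with resveratrol, 30.7 FPKM in conditioned media and 27.9 FPKM in control. Against control, conditioned media had 0 of the 12 past the size threshold, with a median of -0.11 and Jph2 lowest at -0.76.

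For membrane repair, 0 of 27 measured genes passed by size in either direction in the resveratrol and conditioned media pair, and the median was -0.11. Over all loci 4.97% were lower in that pair and 1.53% higher. Trim72, which encodes the vesicle-tethering repair protein MG53, stood at 92.2 FPKM with resveratrol, 54.4 FPKM in conditioned media and 71.0 FPKM in control, and so was lowest in conditioned media like Cav3. Ahnak, whose large product binds dysferlin, stood at 43.4 FPKM with resveratrol, 69.8 FPKM in conditioned media and 71.0 FPKM in control. Capn2, a calcium-dependent protease, stood at 72.0 FPKM with resveratrol, 114 FPKM in conditioned media and 139 FPKM in control. These last genes were lowest with resveratrol, as the ferlins were. Annexins, which bind torn membrane, were unequal. Anxa5 stood at 140 FPKM with resveratrol, 220 FPKM in conditioned media and 241 FPKM in control, a difference like that of Ahnak and Capn2. Anxa1 stood at 304 FPKM with resveratrol, 327 FPKM in conditioned media and 321 FPKM in control, and Anxa2 at 416 FPKM with resveratrol, 609 FPKM in conditioned media and 497 FPKM in control. Ano5, a scramblase-family gene linked to muscular dystrophy, was at 2.02 FPKM with resveratrol, 3.06 FPKM in conditioned media and 4.90 FPKM in control. The 1 gene past the threshold against control was Pla2g4a, a phospholipase, higher with resveratrol at 25.9 FPKM, against 11.7 FPKM in control. Over all loci 3.6% were higher by size against control and 5.25% lower, so 1 higher of 27 is near the background. At a pseudocount of 5 the list had 0 higher, and with TPM over loci longer than 200 bases it had 0 higher and 2 lower.

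The fusion and adhesion list gave 1 lower gene and 0 higher with resveratrol against conditioned media, among 23 measured, with a median of -0.25. Over all loci 4.97% were lower by size and 1.53% higher, so this count is near the background, and it is 0 lower at a pseudocount of 5. Adam12, a metalloprotease gene of fusing myoblasts, was that gene, at 3.88 FPKM with resveratrol, 10.8 FPKM in conditioned media and 16.1 FPKM in control. Il4ra, the interleukin-4 receptor chain, through which interleukin-4 recruits myoblasts to growing myotubes, had the highest ratio of the list (0.91), at 40.4 FPKM with resveratrol, 21.0 FPKM in conditioned media and 11.1 FPKM in control. Adam12 and Il4ra were also the 1 lower and the 1 higher gene by size with resveratrol against control. There 5.25% of all loci were lower and 3.6% higher. Cdon, a receptor that joins cadherin complexes in myoblasts, stood at 36.5 FPKM with resveratrol, 45.4 FPKM in conditioned media and 46.2 FPKM in control. Ctnnb1, beta-catenin, which binds the tails of both cadherins, stood at 252 FPKM with resveratrol, 181 FPKM in conditioned media and 174 FPKM in control, and Ctnnd1, p120-catenin, at 52.8 FPKM with resveratrol, 81.3 FPKM in conditioned media and 80.8 FPKM in control. Ctnnb1 and Ctnnd1 thus differed with resveratrol in opposite directions, neither past the threshold. Ctnna1, another catenin of the list, stood at 152 FPKM with resveratrol, 132 FPKM in conditioned media and 159 FPKM in control. Against control, conditioned media gave 0 of the 23 past it, with Kirrel3 lowest at -0.94 and Il4ra highest at 0.87. Kirrel3 was a low gene, at 1.33 FPKM with resveratrol, 0.482 FPKM in conditioned media and 1.83 FPKM in control. The authors' deposited table did not test it.

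**Figure D4:**
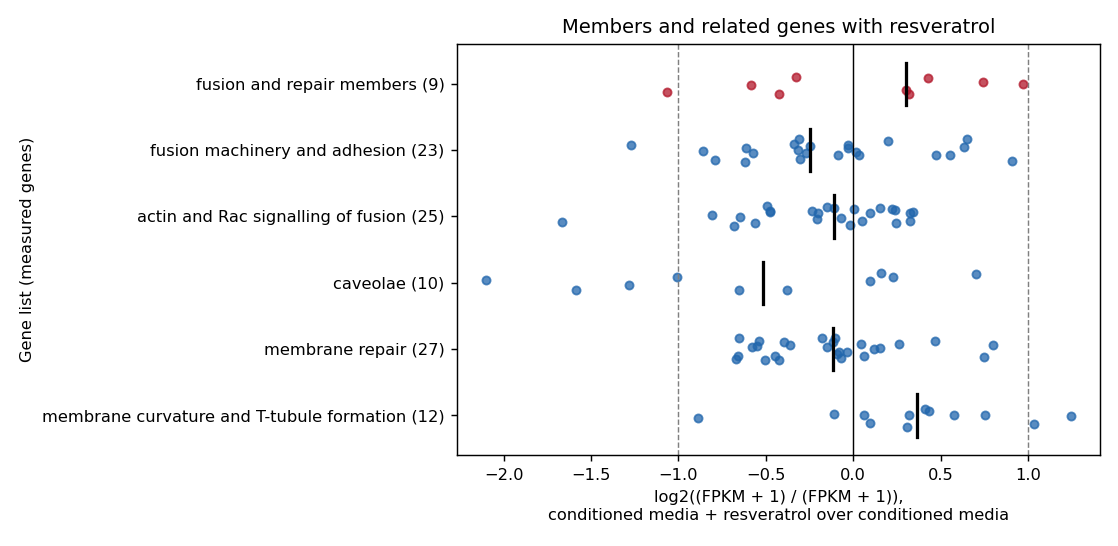
log2((FPKM + 1)/(FPKM + 1)) of conditioned media + resveratrol over conditioned media for each measured gene (1 point a gene, spread vertically at random) in the 9 members and the 5 lists, with a black bar at each median and dashed lines at -1 and 1. The medians run from -0.52 for the caveola list to 0.37 for the T-tubule list, and the members are split, with 5 above 0 and 4 below.

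In each library RNA from myotubes and from unfused cells was read together, so fewer cells of a type and less RNA per cell cannot be told apart. Ehd2, the ferlins and Cdh15 were low with resveratrol. There the 7 markers of proliferating cells summed to 53.9 FPKM, against 239 FPKM in conditioned media and 197 FPKM in control. Of these, 6 of 7 were lower by size than in either other library. Over all loci 4.97% were lower than in conditioned media and 5.25% lower than in control. The 8 myoblast and reserve cell markers summed to 333 FPKM with resveratrol, 279 FPKM in conditioned media and 232 FPKM in control. With resveratrol 3 of the 7 measured were lower by size than in conditioned media. Myf5, 1 of these 3, stood at 2.69 FPKM with resveratrol, 9.23 FPKM in conditioned media and 10.9 FPKM in control. The 2 of the 7 that were above 0, Sdc4 and Vcam1, went the other way. Sdc4 stood at 174 FPKM with resveratrol, 117 FPKM in conditioned media and 80.6 FPKM in control. Vcam1 stood at 78.0 FPKM with resveratrol, 49.2 FPKM in conditioned media and 42.6 FPKM in control. The 6 fibroblast markers summed to 2343 FPKM with resveratrol, 3332 FPKM in conditioned media and 2415 FPKM in control. Most of this was Col3a1, at 1765 FPKM with resveratrol, 2216 FPKM in conditioned media and 1483 FPKM in control. With resveratrol all 4 measured were below 0 over conditioned media. Over control 3 were above 0 (50.0% of all loci were) and 1, Col1a1, below at -0.77. The summed myotube markers were, like Cav3, highest with resveratrol and lowest in conditioned media, but not every marker ran this way. With resveratrol 10 of the 12 were above 0 over conditioned media (52.5% of all loci were) and 9 over control (50.0% were). Ckm stood at 43.2 FPKM with resveratrol, 56.3 FPKM in conditioned media and 60.8 FPKM in control. Tnnt1 stood at 134 FPKM with resveratrol, 154 FPKM in conditioned media and 168 FPKM in control. The part of these cells in the members' values was not tested.

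Among 8897 other genes with 1 symbol and a mean of 5 FPKM or more, the nearest pattern to each member was found as the smallest distance between log2(FPKM + 1) values centred over the 3 libraries. Cav3 had the fewest near neighbours, with 7 genes within 0.1, and the nearest was Lrrn1 (distance 0.03), at 11.4 FPKM with resveratrol, 5.18 FPKM in conditioned media and 9.82 FPKM in control. Ehd2 was nearest to Lmnb1, the lamin B1 gene (distance 0.03, 26 genes within 0.1), at 7.86 FPKM with resveratrol, 17.0 FPKM in conditioned media and 16.7 FPKM in control. Cdh2 was nearest to Noa1 (25 genes within 0.1), Dysf to Sec13 (38), Cdh15 to Dhrsx (57) and Myof to Anapc15 (81). Mymk was nearest to Nop9, Mymx to Cops4 and Bin1 to 1700021F05Rik, but 436, 647 and 426 genes lay within 0.1 of these members. The distance is absolute, so these counts also depend on how far a gene ranged over the libraries. That range in log2(FPKM + 1) was 0.32 for Mymk, 0.30 for Mymx and 0.43 for Bin1. It was 0.97 for Cav3 and 1.06 for Ehd2. Among the members themselves the closest pairs were Mymx with Bin1 (distance 0.09) and Cdh15 with Dysf (0.09), followed by Mymk with Mymx (0.12).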

How the data were processed

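RNA sequencing of 3 libraries, 1 per group by the treatment labels, was analysed from 1 deposited table. The submitters' processing notes list Cuffdiff 2.2.1.3, Cufflinks 2.2.1.0, Bowtie, TopHat2 2.1.0, Trim Galore 0.4.3.1 and FastQC 0.69, with mm10 as the build. How libraries were scaled, which annotation was used and whether strand was counted are not given in the sources. Per the file headers, the authors' FPKM come with the authors' log2 fold change without a pseudocount, the deposited Cuffdiff test statistic (a score) and the deposited p-values and q-values. Those calls compare single libraries, not conditions. Depth is unknown: among 4286 untested loci the most frequent ratio between libraries was shared by 9, so no read steps were found.

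From FPKM, log2 ratios were computed with a pseudocount of 1 (Python 3.11.15, pandas 2.3.3), and called at an absolute value of 1 and a mean FPKM of 1. The calling was run on simulated data with 200 planted changes well past the threshold. That run does not bear on members near the threshold. Members, lists and named-gene rule (up to 4 genes per list and comparison by absolute log2 ratio, partner genes fixed by name, nearest patterns) were chosen with earlier results of these data known. Some list genes were named outside that rule, among them Ctnna1, Ctnnd1, Rac1, Cdc42, Fer1l5 and Otof. Positions are mm10, 1-based, as the deposited locus gives them. Cd81, Murc, Ahnak2, Pdcd6 and Fer1l6 were not matched as single symbols. Alternatives were other pseudocounts, filters and scalings.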

Additional observations from a re-analysis of the deposited data

How the results depend on the processing

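Of 135 log2 ratios of single members under 5 other pseudocounts and scalings, 124 kept their sign and their side of the threshold. A pseudocount cannot change a sign, and every sign change came with rescaling to TPM. Rescaling to TPM shifted the median over all loci to a log2 ratio of 0.14 in both comparisons with control when summed over all loci, and to -0.10 for conditioned media and -0.14 for resveratrol over control when summed over loci longer than 200 bases. Loci of 200 bases or less held 78.4% of the FPKM sum with resveratrol, 79.3% in conditioned media and 83.0% in control. The scaling over all loci therefore rests mostly on these short loci. Under TPM over all loci, Bin1 and Mymx for conditioned media over control turned to 0.063 and 0.11. Under TPM over loci longer than 200 bases, Ehd2 for conditioned media over control turned to -0.06, and Mymk and Cdh2 for resveratrol over control turned to -0.076 and -0.068.

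For resveratrol over conditioned media, a pseudocount of 0.1 gave 1 member higher (Cav3). For resveratrol over control, 2 were lower at a pseudocount of 0.1 (Ehd2 and Dysf), 0 at a pseudocount of 5, 0 with TPM over all loci, and 3 with TPM over loci longer than 200 bases (Cdh15, Dysf and Ehd2). By the calls in the authors' deposited table, 7 members were lower in conditioned media than in control, 5 were higher and 4 lower with resveratrol than in conditioned media, and 3 were higher and 4 lower with resveratrol than in control. The other counts stayed the same under the alternatives run. Of these, the mean FPKM filters could not move a member, since Dysf, the lowest of the 9, had a mean of 9.36 FPKM. Summing loci could not move the 4 ratios within a library, since each gene in them had 1 locus. The share of higher among all loci past the threshold in conditioned media over control was 72.5%, 83.0% with TPM over all loci, 62.8% with TPM over long loci and 59.6% at a pseudocount of 5, and for resveratrol over control it was 40.7%, 61.8% with TPM over all loci and 27.8% over long loci. List counts, whose alternatives were added after seeing the data, moved by 1 or 2 genes where they moved, to 0 lower in the fusion list for resveratrol over conditioned media at a pseudocount of 5 among them. With 1 library per group no library could be left out. No paired analysis was possible because each group held 1 library. Low genes such as Dysf are the most affected by the pseudocount.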

Other observations

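Genes listed under actin and Rac signalling of fusion were also read. Of 25 measured, 1 was lower with resveratrol than in conditioned media by size (4.97% of all loci were) and 0 were higher (1.53% were). This count is near the background, and the median log2 ratio was -0.11. The lower gene, Filip1l, stood at 11.1 FPKM with resveratrol, 37.4 FPKM in conditioned media and 37.7 FPKM in control, a course like that of Ehd2. Sh3pxd2a, which encodes the podosome scaffold TKS5, stood at 28.4 FPKM with resveratrol, 50.4 FPKM in conditioned media and 64.1 FPKM in control. With Filip1l it was 1 of 2 lower by size than in control, where 5.25% of all loci were lower. Actr3, a subunit of the Arp2/3 complex that branches actin, stood at 75.9 FPKM with resveratrol, 120 FPKM in conditioned media and 152 FPKM in control. Rac1 and Cdc42, the GTPases of this pathway, stood at 148 FPKM and 314 FPKM with resveratrol, 170 FPKM and 304 FPKM in conditioned media, and 168 FPKM and 309 FPKM in control. In conditioned media against control, 0 of the 25 passed the threshold, with a median of -0.05.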
